A study of Bos taurus with 20 samples.

Results

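The 7 genes described here write, copy or remove DNA methylation: DNMT1, UHRF1, DNMT3A, DNMT3B, TET1, TET2 and TET3. They were taken by their cattle symbols from the 37063 genes of the count files, and all 7 were found, detected in every cow and kept by the filter on low counts. RNA was measured in whole blood drawn at day 63 of gestation from 20 pregnant recipient cows, each carrying a female foetus, with 1 library per cow. The embryos were produced in vitro from oocytes of beef dams and X-sorted semen, and the recipients are described as Angus in one place of the study's methods and as lactating dairy cows in another. The study gives the recipients a range of ages over several years and also considers dam parity, and neither was used here. All cows belonged to 1 group, with no treated or non-pregnant animals among them. The birth weight (BW) of the calf was the only variable used, 45.0 ± 10.1 kg (SD, n = 20). Each cow is named below by the BW of its calf.

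Methylation of cytosine in CpG dinucleotides is copied onto the new strand after DNA replication, set anew at unmethylated sites, and removed by oxidation or by failure to copy. DNMT1 is the maintenance methyltransferase, and UHRF1 binds hemimethylated DNA at replication forks and recruits it. DNMT3A and DNMT3B are the de novo methyltransferases, while TET1, TET2 and TET3 are dioxygenases that oxidize 5-methylcytosine. In blood, DNMT3A and TET2 are known as regulators of haematopoietic stem cells, and UHRF1 and DNMT1 are commonly more abundant in dividing cells. RNA levels of these enzymes do not measure methylation itself, which was not assayed.

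Total counts were between 24632077 and 39892111 per cow, and neither the labels nor the study's methods name a sequencing batch. Marker genes of blood leukocytes were present, led by the neutrophil receptor CSF3R at 1816 ± 354 CPM (SD, n = 20), where CPM is the count scaled to a common library size, the B cell gene CD22 at 420 ± 72.9 CPM and the T cell gene CD3E at 220 ± 32.0 CPM. The most abundant markers of the other lists were the monocyte gene VCAN (456 CPM), the cytotoxic granule gene PRF1 (50.6 CPM), the plasma cell gene JCHAIN (219 CPM), the haemoglobin gene HBB (198 CPM), the platelet gene TUBB1 (381 CPM) and the proliferation gene MKI67 (362 CPM). Of the eosinophil list only IL5RA, the interleukin-5 receptor chain, could be used, because CCR3 and ALOX15 were counted at 0 in all 20 libraries and EPX and PRG3 had no single match in the gene table. The 3 cows of the 56, 46 and 45 kg calves stood apart, with the lowest neutrophil marker scores, and the relations to marker scores that passed the test are given with and without them. Blood was not separated into cell types, so fewer cells of a type and less RNA per cell cannot be told apart.

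Among the maintenance genes, DNMT1 had 147 CPM in the lowest cow, a median of 171 CPM and 195 CPM in the highest (171 ± 12.2 CPM, SD, n = 20). The cow of the 50 kg calf was lowest and that of the 47.4 kg calf highest. UHRF1 ranged from 37.9 CPM through a median of 45.4 CPM to 65.5 CPM (47.3 ± 6.82 CPM, SD, n = 20). Its 2 highest values were 65.5 CPM and 60.2 CPM, in the cows with calves of 56 kg and 46 kg, and the cow of the 45 kg calf followed with 55.2 CPM. UHRF1 overlaps the gene ARRDC5 in the gene table, and ARRDC5 received 117% of the mean count of UHRF1. Whether counting used strand is not stated, so reads of the shared part cannot be assigned with certainty.

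For the de novo enzymes, DNMT3A was at 197 CPM in the lowest cow, 229 CPM at the median and 247 CPM in the highest (228 ± 12.7 CPM, SD, n = 20). Its coefficient of variation, 5.56%, was the smallest of the 7 genes, and 4.86% of the genes tested had a smaller standard deviation of log2 CPM. DNMT3B ranged from 18.7 CPM through a median of 31.5 CPM to 40.0 CPM (30.6 ± 5.61 CPM, SD, n = 20). It had the widest spread of the 7, with a coefficient of variation of 18.4% and a 2.14-fold range. Of the 2156 genes whose mean log2 CPM lay within 0.5 of that of DNMT3B, 87.8% varied less, whereas for DNMT3A this share was 21.3% of 793 genes. Both de novo genes were lowest in the cow of the 37 kg calf.

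The TET genes varied to a similar degree, with coefficients of variation of 8.83% for TET1, 8.04% for TET2 and 8.02% for TET3. TET1 had 30.8 CPM in the lowest cow, 35.4 CPM at the median and 46.2 CPM in the highest (35.9 ± 3.17 CPM, SD, n = 20). The cow of the 56 kg calf held the highest TET1 value and the cow of the 72.5 kg calf the next, at 40.0 CPM. TET2 ranged from 255 CPM through 292 CPM to 338 CPM (291 ± 23.4 CPM, SD, n = 20), with the cow of the 32 kg calf lowest and that of the 38 kg calf highest. TET3 lay between 104 CPM and 142 CPM, with a median of 121 CPM (120 ± 9.65 CPM, SD, n = 20), and the cow of the 50 kg calf, which had the highest DNMT3B, also had the highest TET3. In the cow of the 37 kg calf, 5 of the 7 genes were lowest or second lowest, namely DNMT3A, DNMT3B, TET1, TET2 and TET3. CPM depends on transcript length, and exon lengths were not used here, so these levels give no order of abundance between genes.

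**Figure D1:**
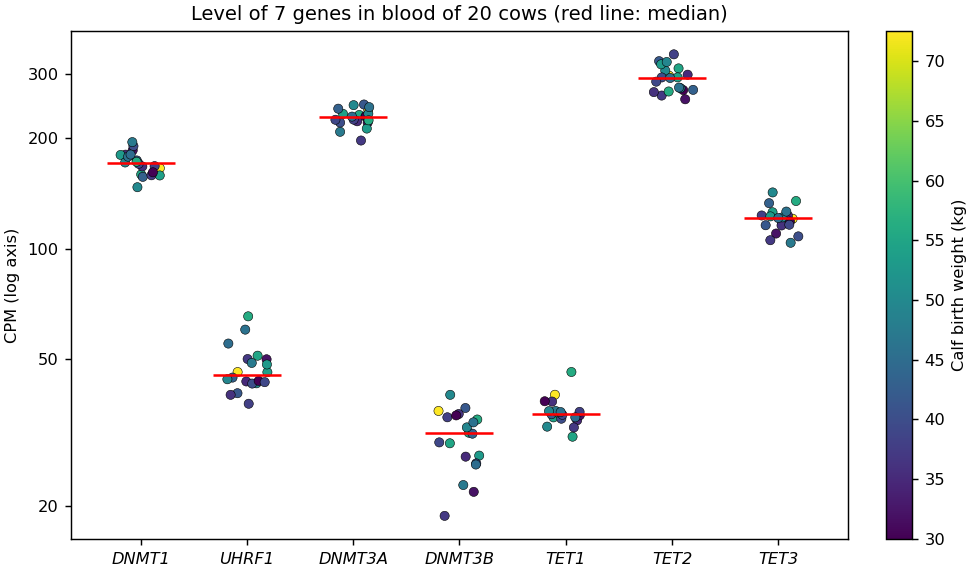
CPM on a log axis of the 7 genes in 20 cows, 1 point per cow coloured by calf BW in kg, with the median as a red line. DNMT3B spreads from 18.7 to 40.0 CPM and DNMT3A only from 197 to 247 CPM, and the points of UHRF1 above 55 CPM belong to 3 cows.

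The first question was which of these genes varied together across the 20 cows. Of the 21 pairs, 1 passed the test: DNMT3A with DNMT3B. When all genes were fitted on the log2 CPM of DNMT3A, DNMT3B changed by 2.86 on the log2 scale per unit of DNMT3A (edgeR quasi-likelihood test, FDR = 0.0101), and DNMT3A fitted on DNMT3B passed as well (FDR = 0.0170). The Pearson correlation of log2 CPM was 0.83 (permutation p = 3e-05, two-sided, n = 20) and the Spearman correlation 0.76 (permutation p = 0.0002). Leaving out the 2 cows farthest from the median of DNMT3A gave 0.67. Both genes were at their low end in the cows with calves of 37 kg and 47.4 kg and at their high end in those with calves of 50 kg and 41.5 kg. As background, 0.928% of the 16268 other genes varied with DNMT3A and 1.65% with DNMT3B at the same FDR. By size of correlation, DNMT3B ranked 8 among the genes with DNMT3A, and DNMT3A ranked 22 with DNMT3B. The call was lost once the cow of the 37 kg calf was left out (FDR = 0.130, slope 2.62), with the T cell score in the fit (FDR = 0.115) and with the B cell score in the fit (FDR = 0.359, slope 1.85).

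TET3 stood nearest to this pair without passing the test. Its Pearson correlation was 0.69 with DNMT3B (permutation p = 0.00086, n = 20; FDR = 0.0855 over all genes by edgeR) and 0.63 with DNMT3A (permutation p = 0.00276, n = 20; FDR = 0.172 by edgeR). The Spearman correlations were 0.46 and 0.50 (permutation p = 0.0451 and 0.0279). Without the 2 cows farthest on the de novo gene, the Pearson values were 0.58 and 0.40. DNMT1 had negative values with all 3 of them, -0.37 with DNMT3A (permutation p = 0.106), -0.45 with DNMT3B (permutation p = 0.0449) and -0.53 with TET3 (permutation p = 0.0158), none past the edgeR test. Without the 2 cows farthest on DNMT1 these values were -0.099, -0.23 and -0.20. Without the 2 cows farthest on the other gene they were -0.57, -0.72 and -0.20. The maintenance partners DNMT1 and UHRF1 had a correlation of 0.20 (permutation p = 0.388, n = 20), and 0.14 without the 2 cows farthest on DNMT1. Among the TET genes the values were -0.26 for TET1 with TET2, 0.23 for TET1 with TET3 and 0.24 for TET2 with TET3, with permutation p-values of 0.284, 0.326 and 0.303. A correlation that misses the threshold in 20 cows does not show that 2 genes are unrelated.

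**Figure D2:**
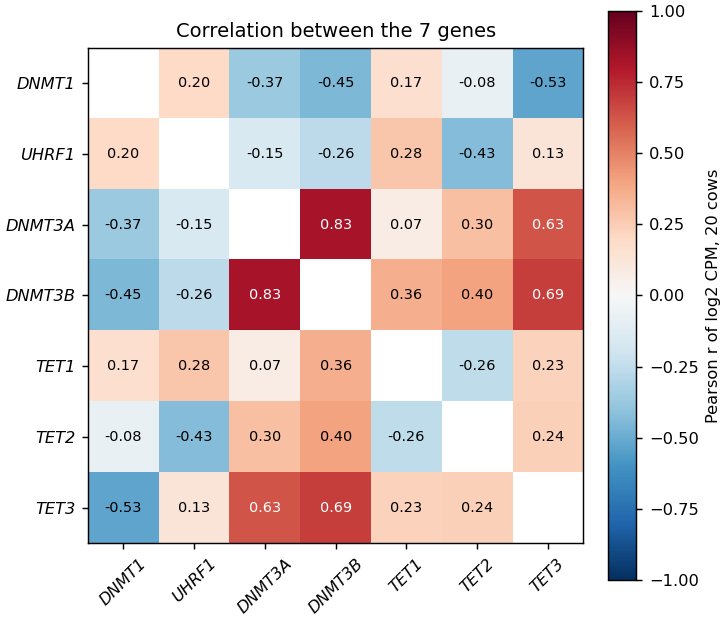
Pearson correlation of log2 CPM between the 7 genes over 20 cows, from -1 in blue to 1 in red. DNMT3A with DNMT3B is highest at 0.83, TET3 is next to both with 0.63 and 0.69, and DNMT1 with TET3 is lowest at -0.53.

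The other genes that varied with each of the 7 were counted at the same FDR. With UHRF1, 635 genes were higher and 204 lower, which is 5.16% of those tested. Leaving out the cow with the 56 kg calf gave 263 and 38, and leaving out that with the 46 kg calf gave 526 genes in all. With IL5RA in the fit there were 10 and 2. For DNMT3B there were 173 higher and 95 lower, and for DNMT3A 104 higher and 47 lower. Once the cow of the 37 kg calf was left out, DNMT3B had 74 and 44 and DNMT3A 2 and 0, and with the B cell score in the fit both had 0 and 0. TET1 had 15 higher and 41 lower (0.344%), TET3 10 and 3 (0.0799%), DNMT1 4 and 0 (0.0246%) and TET2 1 and 0 (0.00615%). Leaving out 1 cow at a time gave 301 to 1024 genes for UHRF1, 118 to 319 for DNMT3B, 2 to 192 for DNMT3A, 0 to 134 for TET1, 0 to 21 for TET3, 0 to 136 for DNMT1 and 0 to 12 for TET2. TET1 had 0 when the cow with the 56 kg calf was left out, and DNMT1 had 136 when that with the 37 kg calf was. Differences between these counts were not tested. The genes most like each of the 7 in pattern are given next by Pearson correlation over 20 cows, as a description. For DNMT1 they were SERPINE2 (0.86), LAX1 (0.84) and BCL11B (0.83), and for UHRF1 they were GSR (0.91), PIP5K1B (0.91) and PLCB2 (0.89). DNMT3A was closest to STRBP (0.90), TMCC3 (0.85) and CRIP3 (0.84). DNMT3B was closest to GLB1L2 (0.89), PLCG2 (0.88) and SPOCK2 (0.87), of which GLB1L2 was rare at 0.560 CPM. KIF3C (0.83), CSRNP2 (0.78) and POLI (0.77) came nearest to TET1, and their correlations fell to between 0.43 and 0.59 without the 2 farthest cows. For TET2 the nearest genes included ATP7A (0.86) and HELZ (0.82), and for TET3 they were RREB1 (0.89), ARRB1 (0.82) and CCND3 (0.81).

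Whole blood holds a mixture of cells, so each of the 7 genes was set against 10 marker scores, each the mean of standardized log2 CPM over the genes of a list. Of the 70 relations, 14 had an adjusted permutation p of the Pearson correlation under 0.05 (Benjamini-Hochberg over the 70). The de novo enzymes went with B cell markers, DNMT1 with T cell markers, UHRF1 with IL5RA and TET1 against neutrophil and monocyte markers. TET2 had none of the 14. These relations share the libraries and their normalization with the genes, and the part of cell composition in the results was not tested. The scores may also be related to one another, so the 14 relations are not counted as separate findings. In the cow of the 47.4 kg calf the T cell score was highest (1.82) and the B cell score lowest (-1.51). Its replication and mitosis score was also the highest (1.14). The cow of the 56 kg calf had the lowest neutrophil (-1.88) and monocyte (-2.42) scores. Correlations between scores were not computed.

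DNMT3B correlated with the B cell score at 0.79 (Spearman 0.82, permutation p = 2e-05, adjusted p = 0.0007, n = 20) and with the T cell score at -0.69 (Spearman -0.74, permutation p = 0.00098, adjusted p = 0.0098). Of the 7 B cell markers, 6 were positive with DNMT3B, led by MS4A1 at 0.85 and CD22 at 0.84, while BLK was at 0.00. DNMT3A had 0.71 with the B cell score (Spearman 0.72, permutation p = 0.00033, adjusted p = 0.0046) and -0.60 with the T cell score (permutation p = 0.00546, adjusted p = 0.0294). The B cell values in the 17 other cows, without the 3 that stood apart, were 0.83 for DNMT3B and 0.73 for DNMT3A. Both genes were also lower where the replication and mitosis score was higher, DNMT3B at -0.77 (permutation p = 8e-05, adjusted p = 0.0014, n = 20) and DNMT3A at -0.58 (permutation p = 0.00716, adjusted p = 0.0358). In the 19 cows without the 72.5 kg calf the relation of DNMT3A no longer passed (-0.55, adjusted permutation p = 0.0644). Without the 3 cows that stood apart the values were -0.83 for DNMT3B and -0.73 for DNMT3A, and those with the T cell score were -0.71 and -0.66. This list holds genes of the replication fork and spindle such as MCM5, CDK1 and TOP2A.

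DNMT1 had the opposite signs. Its correlation was 0.79 with the T cell score (Spearman 0.82, permutation p = 3e-05, adjusted p = 0.0007, n = 20), and all 9 T cell markers were positive, with CD3E at 0.80 and CD5 lowest at 0.28. With the 2 farthest cows left out it was 0.71, and without the 3 cows that stood apart 0.78. The replication and mitosis score gave 0.63 for DNMT1 (Spearman 0.60, permutation p = 0.00286, adjusted p = 0.0182; 0.61 without the 3 cows) and 0.42 for UHRF1 (permutation p = 0.0634, adjusted p = 0.207). TET3 was at -0.61 with the T cell score (Pearson permutation p = 0.00456, adjusted p = 0.0266, n = 20), at -0.40 without the 2 farthest cows and at -0.70 without the 3 cows. Its Spearman correlation with that score was -0.44 and did not pass (permutation p = 0.0534, adjusted p = 0.197).

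UHRF1 followed IL5RA, with a Pearson correlation of 0.82 (Spearman 0.75, permutation p = 2e-05, adjusted p = 0.0007, n = 20). IL5RA was at 20.2 CPM in the lowest cow, 58.8 CPM at the median and 200 CPM in the highest, and its 2 highest cows, with calves of 56 kg and 46 kg, were also the 2 highest for UHRF1. Without the 3 cows that stood apart the correlation was 0.61 (permutation p = 0.00993, n = 17). The overlapping gene ARRDC5 correlated with IL5RA at 0.92 (permutation p = 1e-05, the lowest possible with 100000 resamples) and with UHRF1 at 0.78 (permutation p = 4e-05, n = 20), and the part of shared reads in the values of UHRF1 was not tested. UHRF1 also had 0.66 with the natural killer cell score (permutation p = 0.0015, adjusted p = 0.0119, n = 20), and 0.55 without the 3 cows (permutation p = 0.0222, n = 17). Its value with the monocyte score, -0.70 (Spearman -0.40, permutation p = 0.00153, adjusted p = 0.0119, n = 20), was 0.06 without the 3 cows (permutation p = 0.806, n = 17) and so rested on them.

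TET1 was lower where neutrophil markers were higher, with -0.69 (Spearman -0.70, permutation p = 0.0008, adjusted p = 0.0093, n = 20), and 0 of the 8 markers had a positive value with it. The same held for the 6 monocyte markers, with a score correlation of -0.70 (Spearman -0.66, permutation p = 0.00217, adjusted p = 0.0152, n = 20). Without the 3 cows the neutrophil and monocyte values were -0.73 and -0.63 (permutation p = 0.00066 and 0.00634, n = 17). The cow of the 56 kg calf had the lowest neutrophil score and the highest TET1, and the cow of the 55 kg calf, which had the lowest TET1, had a score of 0.93 SD units, where the range over cows was -1.88 to 1.35.

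**Figure D3:**
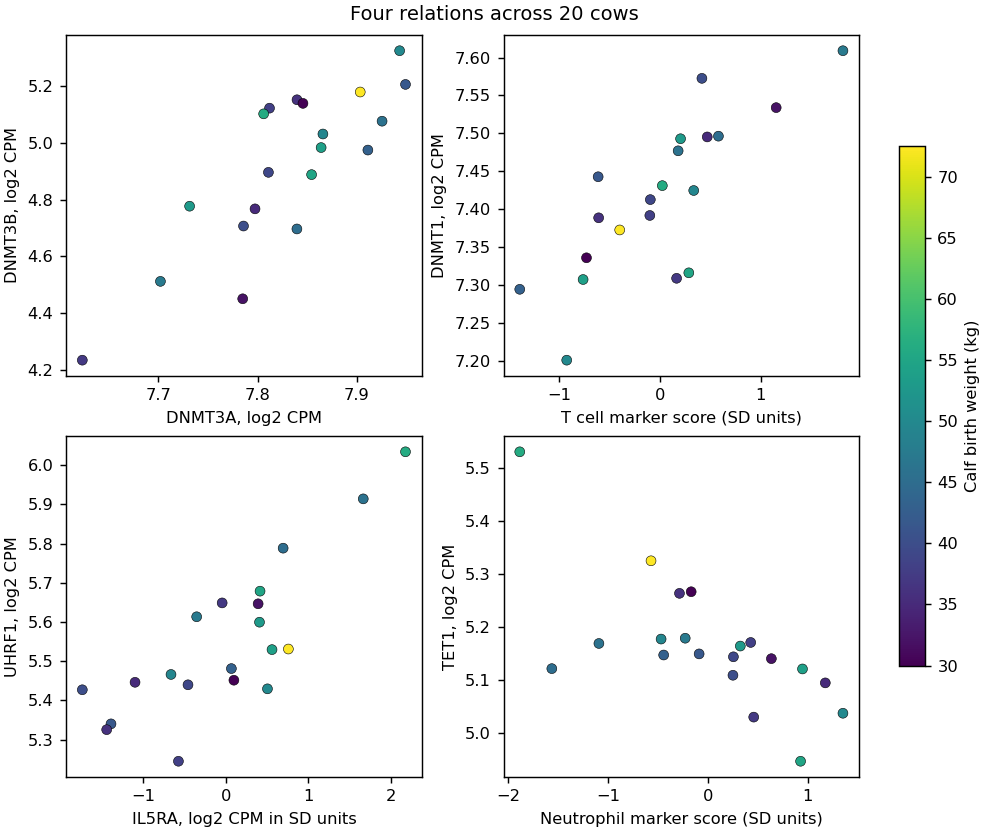
Log2 CPM per cow for 4 relations over 20 cows, coloured by calf BW: DNMT3B against DNMT3A (Pearson 0.83), DNMT1 against the T cell score (0.79), UHRF1 against IL5RA (0.82) and TET1 against the neutrophil score (-0.69). Scores and IL5RA are in SD units across cows, and the cow of the 56 kg calf lies at the upper end of UHRF1 and TET1.

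**Figure D4:**
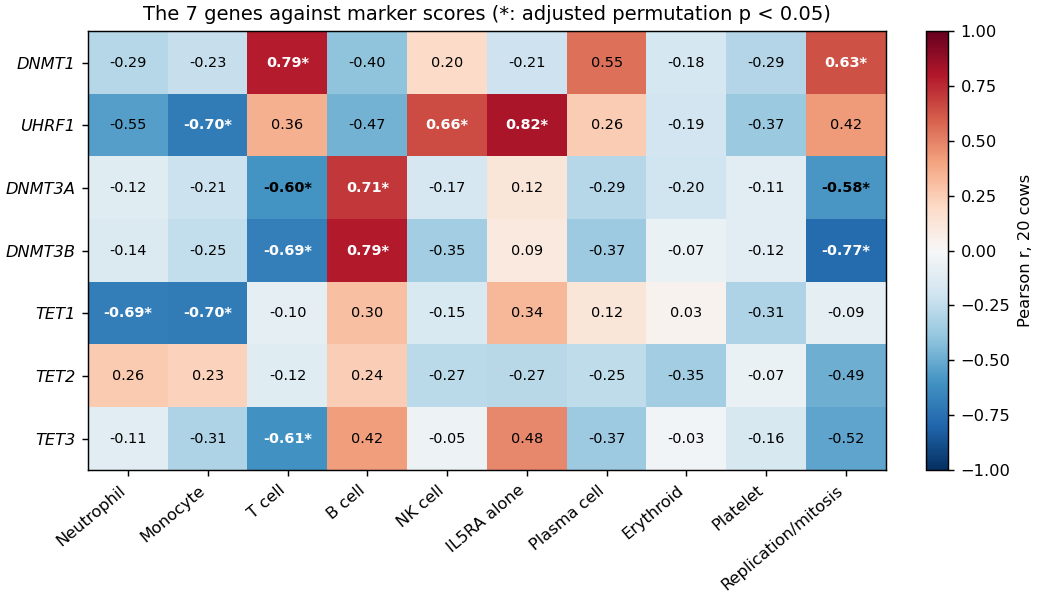
Pearson correlation over 20 cows of each of the 7 genes (rows) with 9 marker scores and with IL5RA alone (columns), where a star marks an adjusted permutation p under 0.05. The 14 starred cells include B cells with DNMT3A (0.71) and DNMT3B (0.79), T cells with DNMT1 (0.79), and none in the row of TET2.

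The study asked whether maternal blood at day 63 of gestation reflects the BW of the calf. In the 19 cows without the 72.5 kg calf, none of the 7 genes changed with BW at an FDR under 0.05 (edgeR quasi-likelihood test). The study left that calf out of its differential expression analysis. Its biomarker predictions include the calf, and it describes no such exclusion for its coexpression modules. Over all 16206 genes tested, 0% passed this threshold with edgeR, and with DESeq2 1.22% of the genes given an adjusted p did, none of the 7 among them. The edgeR count over all genes was 34 when the cow with the 32 kg calf was left out, 0 to 2 when any other was, and 147 of 23087 with no filter on low counts, again with none of the 7. At an unadjusted p under 0.05, 1 of the 7 passed by edgeR, UHRF1, and 13.9% of all genes did, so a single gene of 7 is near the background.

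UHRF1 had a slope of 0.0113 ± 0.0050 on the log2 scale per kg (SE, edgeR p = 0.0345, FDR = 0.316), which is 8.14% per 10 kg of BW with a 95% interval from 0.631% to 16.2%. Its unadjusted p stayed under 0.05 in 16 of 19 fits that each left out 1 cow. The exceptions were the fits without the cow of the 38 kg calf (edgeR p = 0.0535), the 36 kg calf (edgeR p = 0.0598) and the 56 kg calf (edgeR p = 0.197, slope 0.0066), the last being the cow with the highest UHRF1. The slope was 0.0068 (p = 0.118 by edgeR) with all 20 cows, and 0.0011 (p = 0.778 by edgeR) with IL5RA as a covariate. With IL5RA in the fit 7.71% of all genes had an unadjusted p under 0.05, against 13.9% without it. The slope was 0.0130 with the replication and mitosis score (p = 0.00848 by edgeR) and 0.0117 with the T cell score (p = 0.0240 by edgeR). With the neutrophil score it was 0.0085 and with the B cell score 0.0094 (p = 0.0601 and 0.0571 by edgeR). IL5RA itself correlated with BW at 0.50 (Spearman 0.60, unadjusted Pearson permutation p = 0.0259, n = 20), and at 0.51 in the 19 cows (permutation p = 0.0266). All 10 marker scores were set against BW, and this was the smallest p. The others in 20 cows lay between 0.192 and 0.969. The study placed UHRF1 in a coexpression module that it chose for its correlation with BW in these cows, so the slope is not independent evidence of that direction.

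The other maintenance gene, DNMT1, had the only negative slope, -0.0024 ± 0.0032 per kg (SE, edgeR FDR = 0.796). For DNMT3A it was 0.0012 ± 0.0026 (SE, FDR = 0.883 by edgeR), with an interval from -2.89% to 4.74% per 10 kg. DNMT3B had 0.0057 ± 0.0077 (SE, FDR = 0.797 by edgeR) and the widest interval, from -6.95% to 16.4% per 10 kg. With the B cell score in the fit its slope was 0.0127 (unadjusted p = 0.0106, FDR = 0.216 by edgeR). In that fit 14.2% of all genes had an unadjusted p under 0.05.

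The slope of TET1 was 0.0007 ± 0.0036 (SE, FDR = 0.957 by edgeR), and the fit that left out the cow of the 56 kg calf gave -0.0046. With all 20 cows it was 0.0031 (unadjusted p = 0.269 by edgeR). TET1 is one of the study's candidate biomarkers, selected on these cows, so it is not an independent choice. TET2 had 0.0043 ± 0.0035 (SE, FDR = 0.637 by edgeR) and 0.0094 with IL5RA in the fit (unadjusted p = 0.0130, FDR = 0.503 by edgeR). In the fit with IL5RA 7.71% of all genes had an unadjusted p under 0.05. The slope of TET3 was 0.0059 ± 0.0032 (SE, FDR = 0.436 by edgeR), or 4.18% per 10 kg with an interval from -0.560% to 9.14%. With the B cell score in the fit it was 0.0073 (unadjusted p = 0.0193, FDR = 0.254 by edgeR) and with the T cell score 0.0054 (unadjusted p = 0.0439, FDR = 0.325 by edgeR). Those fits held 14.2% and 14.7% of all genes at an unadjusted p under 0.05. For DNMT3B, TET2 and TET3 only covariate fits with an unadjusted p under 0.05 are named, and the other covariates gave larger p-values.

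**Figure D5:**
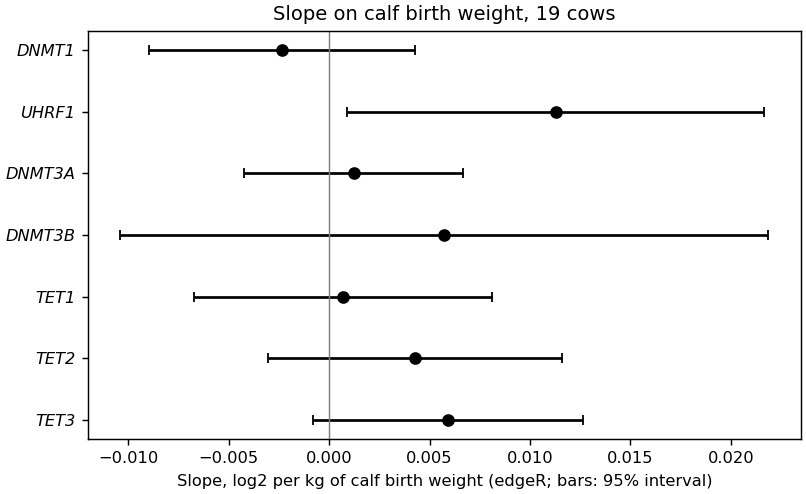
Slope of each of the 7 genes in log2 units per kg of calf BW over 19 cows, with 95% intervals from the edgeR fit. The interval of UHRF1, from 0.0009 to 0.0217, does not include 0 before adjustment, and those of the other 6 do.

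Genes of 5 lists drawn up around these enzymes were examined in the same fit on BW, and none of the 64 tested passed an FDR of 0.05. The list of methylation partners and relatives had 5 positive and 3 negative slopes among 8 tested, with a median of 0.0017 per kg beside -0.0007 for all genes. The smallest p-values there belonged to CDCA7 (-0.0051), which helps the remodeler HELLS reach hemimethylated DNA, UHRF2 (0.0056), a relative of UHRF1, and TRDMT1 (-0.0068), a methyltransferase of transfer RNA. Their unadjusted edgeR p-values were 0.0783, 0.114 and 0.202. Among the 16 genes that supply or follow TET activity, 4 slopes were positive and 12 negative, with a median of -0.0026. Here GADD45G had 0.0253 (unadjusted p = 0.0417 by edgeR) and IDH2, which makes the TET cosubstrate 2-oxoglutarate, had -0.0058 (p = 0.0542 by edgeR).

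The 7 genes listed as methyl-CpG readers and their relatives had 5 positive and 2 negative slopes with a median of 0.0008. ZBTB33, also known as Kaiso, had the smallest p of these lists at 0.0098 (slope 0.0099, FDR = 0.215 by edgeR), while ZBTB4 had -0.0017. Of 10 genes of the methyl donor cycle, which makes S-adenosylmethionine for the DNMT enzymes, 2 slopes were positive and 8 negative, with a median of -0.0057. Methionine synthase, MTR, had -0.0075 (unadjusted p = 0.0337 by edgeR), MAT2B had -0.0058 and SHMT1, at 0.490 CPM, had -0.0474. The 23 replication and mitosis genes had 9 positive and 14 negative slopes with a median of -0.0048, with MCM5 at -0.0093 (unadjusted p = 0.0321 by edgeR), CDK1 at -0.0142 and CDC45 at 0.0065. At an unadjusted p under 0.05 these lists held 0 of 8, 2 of 16, 1 of 7, 1 of 10 and 1 of 23 genes, against 13.9% of all genes.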

How the data were processed

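Blood in Tempus tubes was sequenced as 1 library per cow. The kit is SMARTer Stranded by the labels and Truseq-stranded mRNA by the study's text. The authors checked reads with FastQC 0.11.9, trimmed them with Trimmomatic, aligned them with STAR 2.7.0b to the ARS-UCD1.3 assembly and counted them with featureCounts of Subread 2.0.3. The authors deposited raw counts per gene identifier, with no normalization, and the strand setting and the handling of multi-mapping reads are not given in the sources used here. Symbols were looked up in the NCBI gene table (ARS-UCD2.0), which holds all 37063 identifiers, and 135 of 137 listed genes had a single match.

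CPM and log2 CPM were computed with TMM factors in edgeR 4.0.16 under R 4.3.3 (prior count of 2). Genes that reached 10 counts in 5 or more cows entered the quasi-likelihood fits, on BW in 19 cows (16206 genes) and on the log2 CPM of each of the 7 genes in 20 cows. A pair was called where the FDR (Benjamini-Hochberg over all genes) was under 0.05 in both fits. Correlations have two-sided permutation p-values (100000 resamples). DESeq2 1.42.0, limma 3.58.1 with voom, other size factors and filters, covariates and left-out cows were alternatives, and the B cell and IL5RA covariates, the left-out markers and the removal of 3 cows were added after seeing the data. The fits were tested on simulated counts. The simulated slopes on BW were larger than those of the 7 genes, so recovery of slopes of the size seen here was not tried. The 7 genes and all lists were chosen with earlier results of these data known. Genes named beside the 7 are the 3 with the highest correlation with each, the 3 with the smallest p on BW in each pathway list and the most abundant marker of each list, except that some of them are not reported here. TOP2A, and the single markers named for their correlations, were chosen after the values were seen, as were ARRDC5 and IL5RA. Depth sets the counting error, which is small beside the spread between cows, since the lowest count of any of the 7 genes was 636. No 2 libraries repeated each other (chi-square per degree of freedom at least 12.2 over 190 pairs). Each p-value tests a slope or a correlation against the spread between cows. Exon lengths, protein and promoter sequences were not analysed here, so the planned order of levels per length was not made. Tables and figures were made in Python 3.11.15 with pandas 2.3.3, scipy 1.17.1, matplotlib 3.10.9 and numpy 2.4.6.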

Additional observations from a re-analysis of the deposited data

How the results depend on the processing

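None of the 7 genes passed an FDR of 0.05 on BW under any tool, filter, normalization, covariate or left-out cow that was run. Of 224 alternative slopes, 3 changed sign, all of TET1: -0.0014 with the neutrophil score as a covariate, -0.0019 with IL5RA as a covariate and -0.0046 without the cow of the 56 kg calf. Leaving out 1 cow at a time gave slopes from -0.0046 to 0.0037 for TET1. Over the same fits the call of DNMT3A with DNMT3B gave 0 to 1 pairs, with slopes from 2.62 to 2.9975. The pair was also lost, for 0 pairs called, with the T cell score (slope 2.21) and with the B cell score (slope 1.85) in the fit. It was called with voom, DESeq2 size factors, no filter, 19 cows, and library size, the neutrophil score or IL5RA in the fit. The cause of these changes was not tested. Among 84 alternative correlations between the 7 genes, 5 changed sign, each without the 2 farthest cows: DNMT1 with TET2 (0.0905), DNMT3A with TET1 (-0.11), UHRF1 with TET1 (-0.34), UHRF1 with TET3 (-0.25) and TET1 with TET3 (-0.0768). Of the called marker relations, UHRF1 with monocytes changed to 0.0641 without the 3 cows with the lowest neutrophil scores. The number of called relations was 14 with variance-stabilized counts and 13 in 19 cows, where DNMT3A with replication and mitosis was lost. By Spearman correlation in 20 cows that relation did not pass either (adjusted permutation p = 0.064). Nor did TET3 with T cells (adjusted permutation p = 0.197) or UHRF1 with monocytes (adjusted permutation p = 0.273). The numbers of genes that varied with each of the 7 moved by more than 1.5 times under several of these settings. No paired analysis was possible because all cows belong to 1 group. The order of levels per length and its alternatives were not run.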
